A study of Mus musculus with 35 samples.

Results

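The 51 genes described here encode the machinery of mitosis: the kinases and cyclins that start it, the checkpoint, the kinetochores and the spindle motors. Others act on the condensed chromosomes, on the cohesin that holds sister chromatids, or in separating the daughter cells. The 51 were taken as a fixed list of mouse gene symbols, with no expression value in the rule. They were sorted by function into 8 roles, and the list was chosen with earlier results of these data known. All 51 were found among the 19138 genes counted in the series, and all 51 were among the 14945 genes that passed a filter on low counts.

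Messenger RNA was profiled in LT-HSCs (long-term haematopoietic stem cells), the most durable stem cells of the blood, with 1000 sorted cells per library. There were 35 libraries of 6 genotypes, and mice of every genotype carried SclCre, a Cre recombinase driven in blood stem cells. Of these, 6 libraries were JAK2V617F with Ezh2 -/-, 8 were JAK2V617F with Ezh2 +/-, and 6 were JAK2V617F with intact Ezh2. A further 4 were Ezh2 -/- and 7 were Ezh2 +/-, both without JAK2V617F, and 4 were controls with SclCre alone and Ezh2 +/+. JAK2V617F is an activating mutation of the JAK2 kinase, which relays cytokine signals, and Ezh2 is the enzyme of Polycomb complex PRC2 that methylates histone H3 at silenced genes. Ages were not given in the sources used here. No label names the animal behind a library, so each p reflects how far libraries of a genotype differ, which may be in part technical. Libraries were made in 2 experimental batches, and all 4 control libraries were female.

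Mitotic genes are transcribed in a wave that peaks in G2 and mitosis, when complexes built on the MuvB core activate promoters that the same core helps to silence in resting cells. Most LT-HSCs rest outside the cell cycle, and transcripts of this group are for that reason widely read as a measure of how many stem cells are dividing. The proteins act in sequence: Cdk1 with a B-type cyclin drives entry, the spindle checkpoint holds the cell until every kinetochore is attached, the anaphase-promoting complex then releases the sister chromatids, and a contractile ring divides the cell.

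Depth ran from 13.6 M to 48.6 M (mega) counts per library, with a median of 24.9 M. A 178-base part of Ezh2 that was counted on its own checked the Ezh2 -/- labels: it held 0 Ezh2 counts in all 6 JAK2V617F Ezh2 -/- libraries and 0 to 0.478% of Ezh2 counts in the 4 Ezh2 -/- libraries, against 6.02 to 8.718% in controls. Libraries labelled Ezh2 +/- held 4.077 to 8.495% with JAK2V617F and 0 to 9.497% without it, which overlaps the controls, so that part does not check the +/- labels. There were 2 libraries labelled Ezh2 +/- with values unusual for their labels. Batch 1 replicate 3 held 0 of its 831 Ezh2 counts in that part, and batch 1 replicate 1, labelled male, had 394.15 CPM (counts of a gene per M counts of its library) of Xist, the RNA of the inactive X chromosome, against at most 14.75 CPM in the other male libraries. Jak2 itself was at 45.27 to 136.79 CPM in the JAK2V617F genotypes and at 34.21 to 78.29 CPM in the others. Counts per gene do not show which Jak2 allele was read.

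The stretches around the transcription starts of 8 of the genes are printed here, with short elements described for this class of promoter marked where present. The first 6 are those with the smallest adjusted p between JAK2V617F and control libraries among members higher in all 3 comparisons made below that have 1 RefSeq promoter. Gas2l3 and Kif23 were added after their values were seen, because they depart from the rest. Each runs 5′ to 3′ on the gene's own strand, from 120 bases before to 30 after the start, in GRCm38.p6. Capitals mark TTTGAA or its reverse complement TTCAAA, the core of the cell cycle element read by MuvB complexes, and CCAAT or its reverse complement ATTGG, the box bound by NF-Y.
Spc25 (chr2:69206184-69206333, minus strand): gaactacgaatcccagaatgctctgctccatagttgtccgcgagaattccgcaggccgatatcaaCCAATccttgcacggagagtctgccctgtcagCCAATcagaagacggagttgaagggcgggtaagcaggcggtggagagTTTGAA
Bub1b (chr2:118598091-118598240, plus strand): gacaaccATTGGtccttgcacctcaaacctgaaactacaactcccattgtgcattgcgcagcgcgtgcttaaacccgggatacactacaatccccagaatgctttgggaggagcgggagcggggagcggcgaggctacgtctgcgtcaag
Cdk1 (chr10:69352883-69353032, minus strand): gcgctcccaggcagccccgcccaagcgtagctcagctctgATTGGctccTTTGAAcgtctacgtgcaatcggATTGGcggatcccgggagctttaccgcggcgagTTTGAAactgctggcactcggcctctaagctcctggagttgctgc
Top2a (chr11:99024160-99024309, minus strand): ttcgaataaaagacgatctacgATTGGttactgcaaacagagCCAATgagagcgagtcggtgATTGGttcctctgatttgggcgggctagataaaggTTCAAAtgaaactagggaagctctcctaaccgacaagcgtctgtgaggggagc
Nusap1 (chr2:119618178-119618327, plus strand): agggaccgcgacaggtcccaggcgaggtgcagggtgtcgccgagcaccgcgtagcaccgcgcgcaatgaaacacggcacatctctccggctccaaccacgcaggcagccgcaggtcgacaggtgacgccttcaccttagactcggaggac
Ncapg (chr5:45669805-45669954, plus strand): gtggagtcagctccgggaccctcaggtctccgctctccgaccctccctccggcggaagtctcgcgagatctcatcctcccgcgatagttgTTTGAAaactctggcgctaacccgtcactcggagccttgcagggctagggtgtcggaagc
Gas2l3 (chr10:89443938-89444087, minus strand): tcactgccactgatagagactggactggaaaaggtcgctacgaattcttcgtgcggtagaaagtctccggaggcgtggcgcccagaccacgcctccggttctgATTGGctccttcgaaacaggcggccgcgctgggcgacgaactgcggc
Kif23 (chr9:61946770-61946919, minus strand): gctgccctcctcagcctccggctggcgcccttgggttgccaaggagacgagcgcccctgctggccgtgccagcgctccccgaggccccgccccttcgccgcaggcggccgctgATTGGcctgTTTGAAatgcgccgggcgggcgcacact

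Both elements were frequent in the group. Of the 51 members, 43 had a RefSeq promoter of 300 bases (250 before to 50 after the start), and 33 of these (76.7%) held TTTGAA on either strand, against 20.2% of the promoters of 27025 genes. CCAAT was found in 34 of 43 (79.1%), against 41.1% of all, and both in 29 (67.4%), against 7.97%. Among other mitosis genes, described further below, 36.8% of 114 promoters held TTTGAA and 57% held CCAAT. Among DNA replication genes the shares were 12.5% and 59.4% of 32 promoters. The motor and microtubule genes held TTTGAA most often, in 9 of 10. Nusap1 held neither element in the bases shown, Gas2l3 held CCAAT without TTTGAA, and the TTTGAA of Bub1b lay downstream of the bases shown. A match of letters is a description and not a bound site.

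Every JAK2V617F library, with any Ezh2 genotype, carried more mitotic transcript than every library without JAK2V617F. The level of the group, taken as the mean of log2(CPM + 1) over the 51 genes, was 5.85 ± 0.49 in JAK2V617F Ezh2 -/- libraries (SD, n = 6), 5.51 ± 0.33 in JAK2V617F Ezh2 +/- (n = 8) and 5.78 ± 0.495 in JAK2V617F (n = 6). It was 4.04 ± 0.25 in Ezh2 -/- (n = 4), 3.89 ± 0.62 in Ezh2 +/- (n = 7) and 4.24 ± 0.45 in controls (n = 4). The lowest JAK2V617F library of any Ezh2 genotype stood at 5.02 and the highest library without JAK2V617F at 4.79, so the ranges did not overlap. Summed over the group, transcripts took 2582 to 5149 CPM in JAK2V617F libraries and 1136 to 1880 CPM in controls. In these bulk samples a larger share of cells in mitosis and more of these RNAs per cell cannot be told apart.

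**Figure D1:**
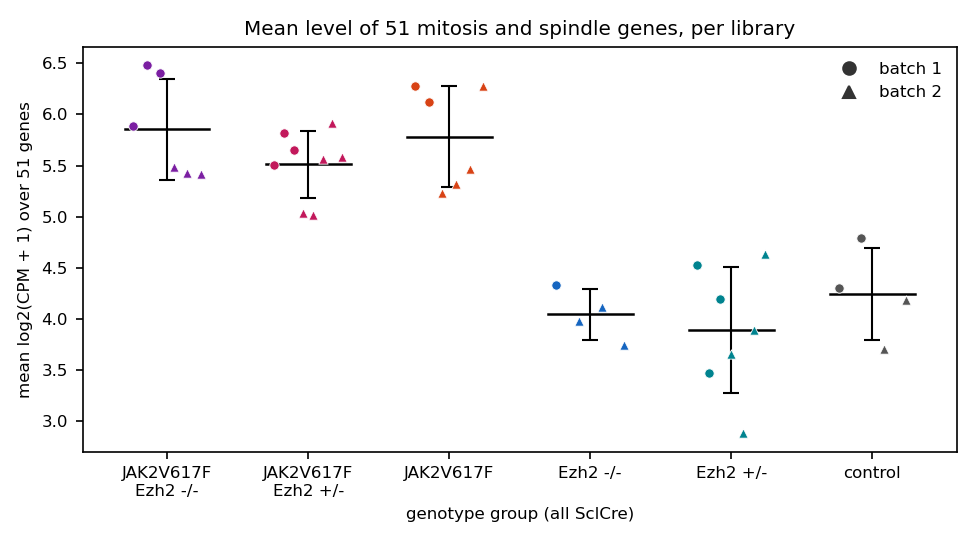
Mean log2(CPM + 1) of the 51 genes in each of the 35 libraries, by genotype. Circles are batch 1, triangles batch 2, lines the group mean and bars the SD. The JAK2V617F genotypes lie at or above 5.02 and the others at or below 4.79.

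The level was higher in batch 1 than in batch 2 for each genotype, and in each batch every JAK2V617F library lay above every library without JAK2V617F. JAK2V617F Ezh2 -/- libraries averaged 6.26 in batch 1 and 5.45 in batch 2, and the 3 of batch 2 lay between 5.42 and 5.49. JAK2V617F libraries averaged 6.20 in batch 1 against 4.54 in batch 1 controls, and 5.58 in batch 2 against 3.94 in batch 2 controls. The widest spread was among Ezh2 +/- libraries, from 2.88 to 4.63. The lowest of them, batch 2 replicate 2, was also among the shallowest (14.26 M counts), with 41 members at or above 1 CPM and 4 with no count.

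Against controls, JAK2V617F LT-HSCs carried more of 35 of the 51 transcripts and less of none (edgeR quasi-likelihood test with terms for batch and sex, Benjamini-Hochberg adjusted p under 0.05 over all 14945 genes), while 2.4% of all genes were called higher. Log2 changes of the 51 ran from 0.26 to 2.77 with a median of 1.72, against a median of -0.03 over all genes tested. In 32 members every JAK2V617F library lay above every control library, which held for 2.4% of all genes. Sex went with genotype in batch 2, where all 4 JAK2V617F libraries were male and both controls female. In batch 1, with 2 JAK2V617F and 2 control libraries, all female, all 51 log2 changes were positive (median 1.70) and 13 members passed. In batch 2 alone, with 4 and 2 libraries, all 51 were again positive (median 1.70) and 3 passed. Single libraries mattered to the count: 21 members passed without control batch 1 replicate 1 and 23 without JAK2V617F batch 1 replicate 1, and 19 passed whichever library was left out.

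With Ezh2 changed on both sides, the same contrast gave 42 of 51 members higher and none lower in JAK2V617F Ezh2 -/- against Ezh2 -/- libraries (median log2 change 1.85, 2.86% of all genes higher), and 43 of 51 higher and none lower in JAK2V617F Ezh2 +/- against Ezh2 +/- libraries (median 1.73, 4.88% of all genes higher). The groups did not overlap in 44 members in the first, against 3.67% of all genes, and in 25 in the second, against 0.575%. These 3 comparisons share no library, though they share the fit and its estimate of spread. In all, 33 members were higher in all 3 comparisons, 47 in at least 1, and 4 in none: Kif23, Kifc1, Melk and Ncaph. The Ezh2 +/- comparison was the steadiest, with all 43 calls held whichever library was left out, against 25 of 42 for Ezh2 -/-. Without the pair of Ezh2 +/- libraries described above it gave 43. In the Ezh2 +/- comparison every member also had a positive log2 change within each batch and among females alone. In the Ezh2 -/- comparison this held within batch 2, with 3 libraries on each side and 20 members called. Batch 1 and the females each hold a single Ezh2 -/- library, assumed to vary like the other groups, so each set of values (all 51 positive) rests on 1 library. In batch 1 that library was male and all 3 JAK2V617F Ezh2 -/- libraries were female. Over both batches, 3 of 4 Ezh2 -/- and 1 of 6 JAK2V617F Ezh2 -/- libraries were male.

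**Figure D2:**
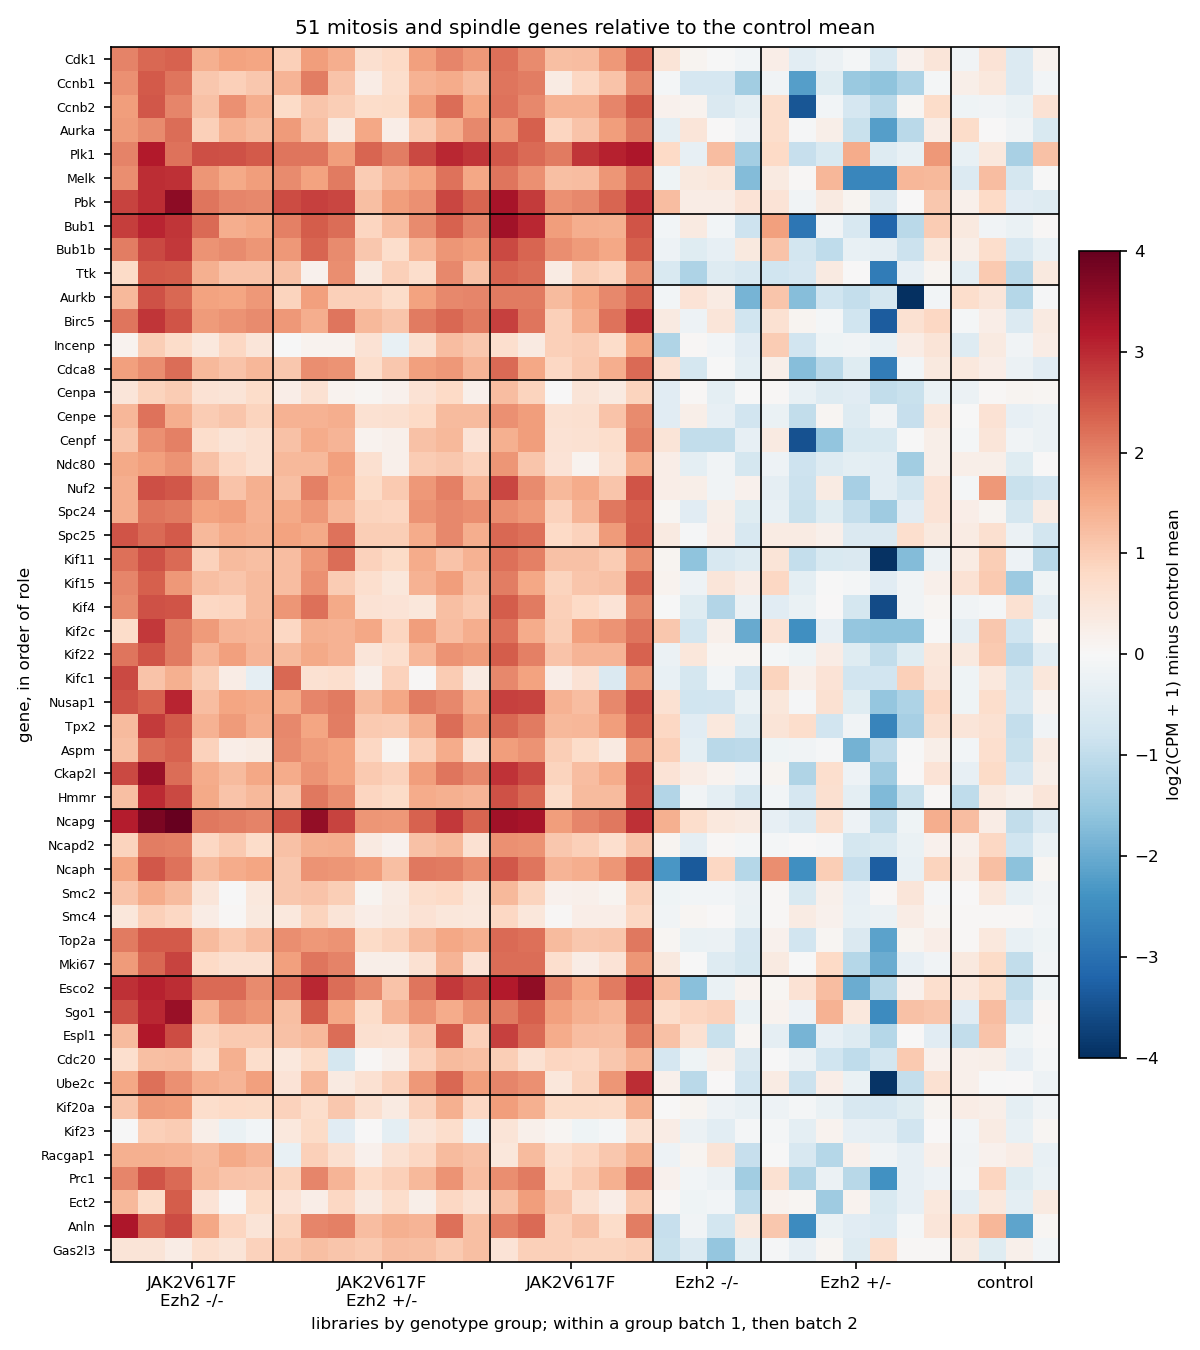
Each of the 51 genes (rows, by role) in each library (columns, by genotype, batch 1 then batch 2), as log2(CPM + 1) minus the mean of the 4 controls, with the colour scale limited at 4 in either direction. The JAK2V617F columns are higher in nearly every row, and Kif23 and Smc4 are among the palest rows.

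The kinases and cyclins of mitotic entry rose in 6 of 7 members in each of the 3 comparisons. Pbk, a mitotic serine/threonine kinase, stood at 61.5 CPM in the lowest, a median of 104 and 172 CPM in the highest JAK2V617F library, against 19 and 29.4 CPM in batch 1 controls and 11.7 and 11.1 CPM in batch 2 controls. The lowest JAK2V617F library was above the highest control. Its log2 change of 2.67 ± 0.32 (SE), a 6.35-fold difference, had the smallest adjusted p of the group against controls (5.91e-06). Cdk1, the kinase that drives entry, had 63.5, 98.1 and 140 CPM (lowest, median, highest) in JAK2V617F libraries, against 24.2 and 40.0 CPM in batch 1 controls and 18.3 and 29.9 CPM in batch 2 controls. These groups did not overlap either, and the log2 change was 1.83 ± 0.29 (adjusted p 0.000245). Aurka, which matures the spindle poles, was higher by 1.80 ± 0.43 (adjusted p 0.0127).

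The B-type cyclins that activate Cdk1 moved with it. Ccnb1 had a log2 change of 1.64 ± 0.40 against controls (adjusted p 0.0145), lost at 0.0567 without control batch 1 replicate 1, and Ccnb2 one of 1.88 ± 0.51, lost without any of 5 libraries (adjusted p up to 0.105). Ccnb1 was further apart in the other comparisons, by 2.38 ± 0.42 in JAK2V617F Ezh2 -/- against Ezh2 -/- and by 2.39 ± 0.31 in JAK2V617F Ezh2 +/- against Ezh2 +/-, where its 8 JAK2V617F libraries had 14.5 to 50.8 CPM and the 7 Ezh2 +/- libraries 1.71 to 10.8 CPM. Plk1, the polo-like kinase, changed by 2.43 ± 0.60 against controls (adjusted p 0.0151, 0.0688 at most on leaving out a library). Melk, another kinase of dividing progenitors, passed in none of the 3, with 2.06 ± 0.85 against controls, 2.22 ± 0.84 in the Ezh2 -/- comparison and 1.33 ± 0.61 in the Ezh2 +/- comparison. Its libraries without JAK2V617F ranged from 0 to 14.2 CPM.

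Of the spindle checkpoint kinases, which delay anaphase until chromosomes are attached, Bub1b rose in every comparison and with every library left out. It had 49.2, 73.3 and 105 CPM (lowest, median, highest) in JAK2V617F libraries, against 19.3 and 26.7 CPM in batch 1 controls and 10.1 and 12.9 CPM in batch 2 controls. The groups were apart, with a log2 change of 2.04 ± 0.33 (adjusted p 0.000245). In JAK2V617F Ezh2 -/- libraries it had 57.8, 65.9 and 121 CPM, against 13.8, 11.3, 12.6 and 21.6 CPM in the 4 Ezh2 -/- libraries. That was a 5.56-fold difference (log2 change 2.47 ± 0.34). Bub1 had a larger estimate against controls (2.54 ± 0.76) but an adjusted p of 0.0531, although its 6 JAK2V617F libraries (22.8 to 89.9 CPM) all exceeded its controls (6.42 to 10.6 CPM). Ttk, which recruits both to the kinetochore, had 1.77 ± 0.57 there (adjusted p 0.0671) and passed in the other comparisons.

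The chromosomal passenger complex, which corrects faulty attachments and later marks the division plane, was split. Birc5 (survivin) had 26.8, 61.9 and 105 CPM in JAK2V617F libraries, against 12.6 and 16 CPM in batch 1 controls and 8.70 and 17.2 CPM in batch 2 controls. All JAK2V617F libraries were higher, and the log2 change was 2.28 ± 0.54 (adjusted p 0.0112, 0.0536 without control batch 1 replicate 1). Cdca8 (borealin) rose by 1.72 ± 0.44, a call lost without any of 5 libraries (adjusted p up to 0.0835). The kinase Aurkb had the same estimate with a larger error, 1.72 ± 0.64 (adjusted p 0.132), and passed in the Ezh2 +/- comparison (2.23 ± 0.50) but not in the Ezh2 -/- comparison (2.05 ± 0.63, adjusted p 0.055). Incenp, the scaffold, had 27.9 to 67.2 CPM in JAK2V617F libraries and 14.8 to 28.2 CPM in controls, with a log2 change of 0.73 ± 0.33 (adjusted p 0.225), 1.29 ± 0.33 in the Ezh2 -/- comparison (adjusted p 0.015) and 0.41 ± 0.24 in the Ezh2 +/- comparison (adjusted p 0.331).

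Kinetochore genes rose in 6 of 7 members against controls. Spc24, Spc25, Ndc80 and Nuf2 form the NDC80 complex, which grips the end of the microtubule, and all 4 were higher in all 3 comparisons. Spc25 had 28.4, 65.7 and 89.8 CPM in JAK2V617F libraries, against 20.3 and 25.4 CPM in batch 1 controls and 13.4 and 9.15 CPM in batch 2 controls. The groups did not overlap, and the log2 change of 2.03 ± 0.32 had the smallest adjusted p of the role (0.000233). The estimates for the other 3 subunits against controls were 1.69 ± 0.33 for Spc24, 1.81 ± 0.46 for Nuf2 and 1.13 ± 0.29 for Ndc80. Leaving out any of 4 libraries ended the call of Nuf2 against controls (adjusted p up to 0.0776) and that of Ndc80 (up to 0.111), and Nuf2 reached 0.0504 in the Ezh2 -/- comparison without Ezh2 -/- batch 1 replicate 1. Cenpe, a motor that carries chromosomes to the spindle equator, rose by 1.51 ± 0.30.

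Cenpa, the histone variant that marks the centromere, had a smaller estimate than the kinetochore proteins above. It had 39.3, 64.8 and 92.3 CPM in JAK2V617F libraries, against 33.1 and 40.1 CPM in batch 1 controls and 42.2 and 41.6 CPM in batch 2 controls. One JAK2V617F library lay within the control range, and the log2 change was 0.78 ± 0.22 (adjusted p 0.0358, 0.163 at most on leaving out a library). It was 0.89 ± 0.22 in the Ezh2 -/- comparison and 0.90 ± 0.17 in the Ezh2 +/- comparison, both passing. Cenpf, a large protein of the outer kinetochore, had 1.31 ± 0.50 against controls (adjusted p 0.141).

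Spindle motors and microtubule proteins were higher in 8 of 11 members against controls and in 10 of 11 in each of the other comparisons. Nusap1, which bundles spindle microtubules, had 49.3, 102 and 143 CPM in JAK2V617F libraries, against 17.8 and 33.7 CPM in batch 1 controls and 12.7 and 22.5 CPM in batch 2 controls. The ranges were apart (log2 change 2.24 ± 0.38, edgeR adjusted p 0.000419). Neither element was in the stretch of the Nusap1 promoter printed above. Kif22, a chromosome-bound motor, rose by 1.85 ± 0.34 and Ckap2l, a spindle pole protein, by 2.30 ± 0.44. Hmmr, Kif15, Tpx2, Kif11 and Aspm also rose, by 1.42 to 2.11. Of these, Hmmr passed with every library left out, while adjusted p rose to 0.0547 for Kif15, 0.052 for Tpx2 (without control batch 2 replicate 2), 0.106 for Kif11 and 0.155 for Aspm. Kif4, another chromosome-bound motor, had 1.71 ± 0.53 (adjusted p 0.0572), and Kif2c, which takes microtubules apart at the kinetochore, 1.66 ± 0.59 (adjusted p 0.103). Kifc1, a motor that focuses spindle poles, was the scarcest member (0.335 RPKM, that is CPM per kilobase of gene, in controls) and had 2.02 ± 1.23 (adjusted p 0.413). It has a near-identical copy, Kifc5b, and whether reads were split between them was not tested.

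**Figure D3:**
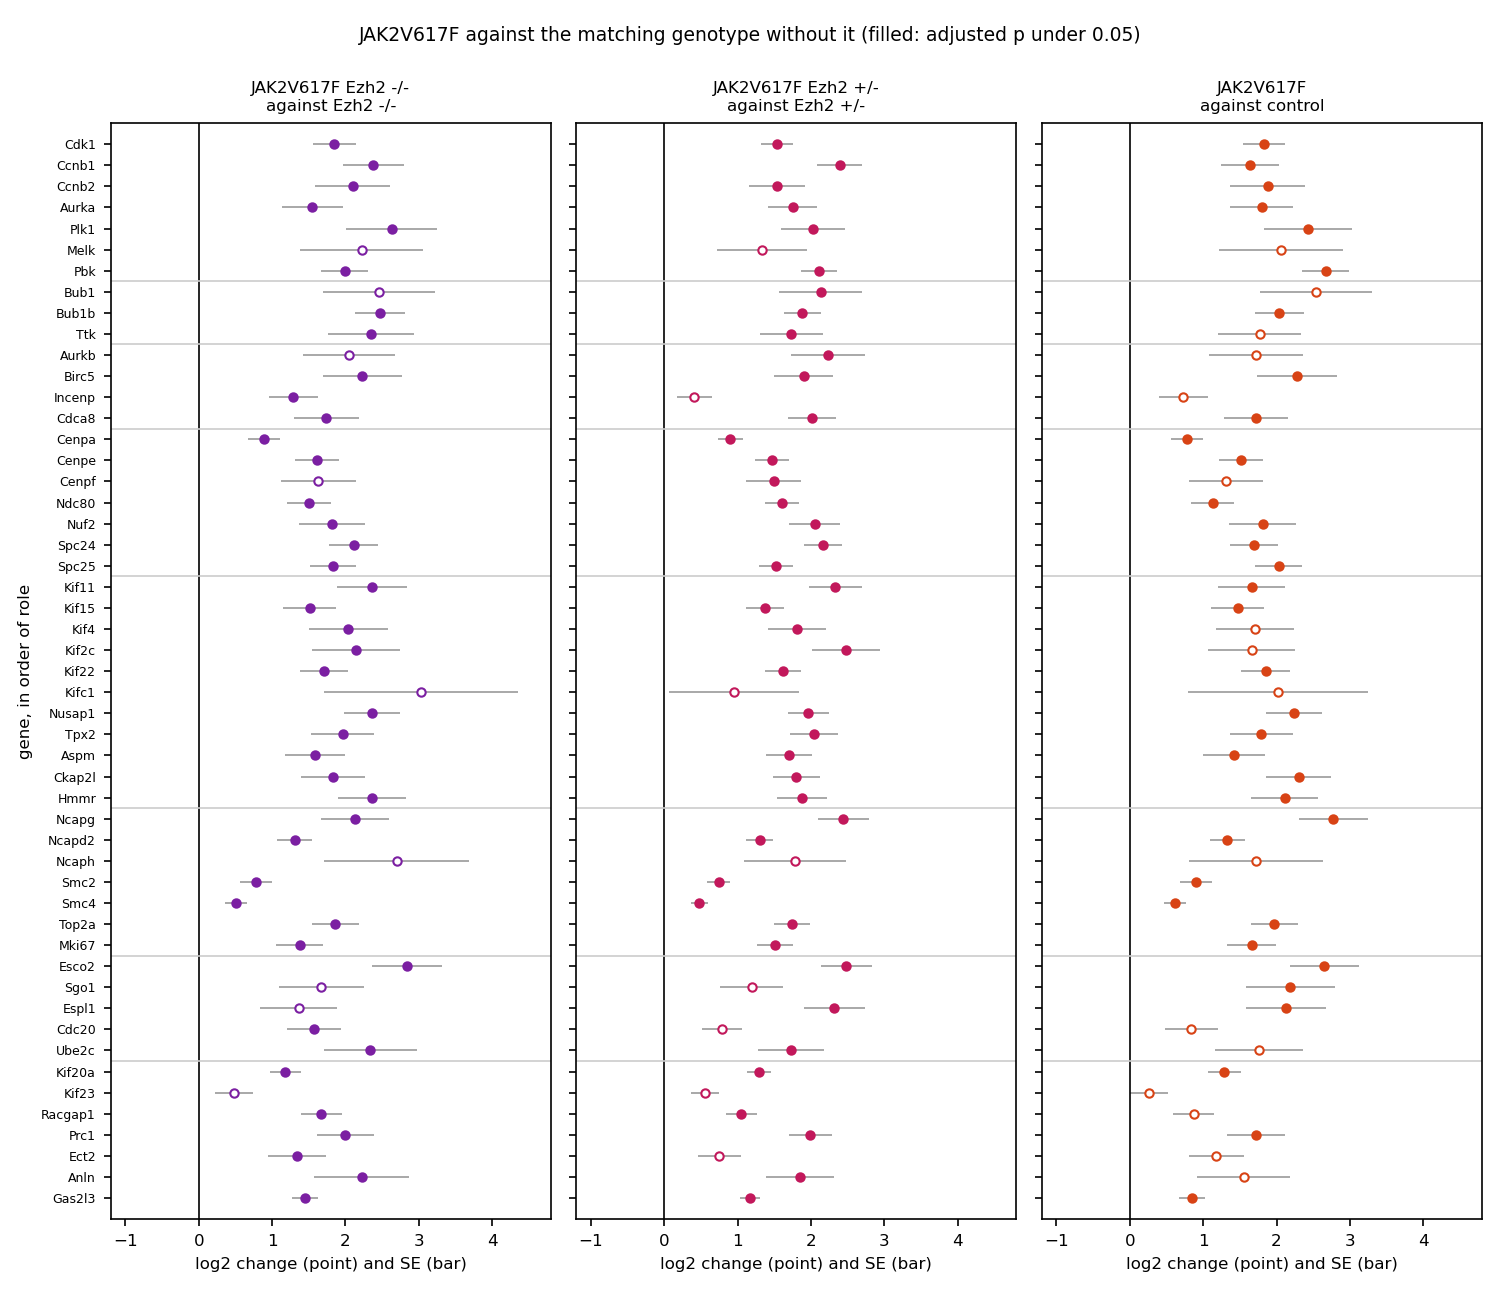
Log2 change with its SE for each of the 51 genes in the 3 comparisons with and without JAK2V617F, by role. Filled points have an adjusted p under 0.05, and all 51 estimates are above 0 in each panel, with Kif23 at 0.26, 0.48 and 0.56 against control, Ezh2 -/- and Ezh2 +/- libraries.

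Chromosome structure genes rose in 6 of 7 members in each comparison, but by very different amounts within 1 complex. Condensin I, which compacts chromosomes, joins the ATPases Smc2 and Smc4 to Ncapg, Ncapd2 and Ncaph, and the ATPases are also used by condensin II. Ncapg had 30, 56.8 and 99.7 CPM in JAK2V617F libraries, against 22.1 and 10.9 CPM in batch 1 controls and 3.91 and 5.61 CPM in batch 2 controls. The groups did not overlap, and its log2 change of 2.77 ± 0.47 (6.81-fold, adjusted p 0.000523) was the highest estimate of the 51 against controls. Smc4 had 168, 211 and 290 CPM in JAK2V617F libraries, against 167 CPM in 3 controls and 153 CPM in the fourth. These ranges also did not overlap, but by a narrow margin, with a log2 change of 0.61 ± 0.15 (1.53-fold, adjusted p 0.0173, 0.0776 at most on leaving out a library).

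The other condensin genes lay between these. Smc2 had a log2 change of 0.90 ± 0.22 (adjusted p 0.0611 at most, without control or JAK2V617F batch 1 replicate 1), Ncapd2 of 1.33 ± 0.24 and Ncaph of 1.72 ± 0.91 (adjusted p 0.335). Ncaph varied most, from 2.61 to 25.2 CPM in controls, and passed in no comparison. Top2a, which untangles sister DNA, had 204, 326 and 459 CPM in JAK2V617F libraries, against 99.8 and 128 CPM in batch 1 controls and 78.0 and 84.0 CPM in batch 2 controls. Every JAK2V617F library was higher, by a log2 change of 1.97 ± 0.32 (adjusted p 0.000332). Mki67, the Ki-67 protein that coats mitotic chromosomes, rose by 1.66 ± 0.33, with overlap: 3 of 6 JAK2V617F libraries (80.3 to 312 CPM) were above the highest control (111 CPM).

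Genes of sister chromatid cohesion and its release rose in 3 of 5 members in each comparison. Esco2, which acetylates cohesin in S phase, had 23.4, 44.8 and 94.1 CPM in JAK2V617F libraries, against 10 and 12.6 CPM in batch 1 controls and 3.16 and 6.19 CPM in batch 2 controls. The groups did not overlap (log2 change 2.65 ± 0.47, 6.28-fold, adjusted p 0.000818), and Esco2 also rose in the Ezh2 -/- comparison (2.84 ± 0.48) and the Ezh2 +/- comparison (2.48 ± 0.35). Espl1 (separase), which cuts cohesin, rose by 2.13 ± 0.54 against controls (adjusted p 0.0172, 0.0846 at most on leaving out a library) and by 2.32 ± 0.41 in the Ezh2 +/- comparison, but had 1.36 ± 0.52 in the Ezh2 -/- comparison (adjusted p 0.132). Sgo1, which shields centromeric cohesin, passed against controls (2.19 ± 0.60, adjusted p 0.0302, 0.114 at most on leaving out a library), and had an adjusted p of 0.0913 in the Ezh2 -/- and 0.0764 in the Ezh2 +/- comparison.

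The anaphase-promoting complex members of the list did not pass against controls. Cdc20, its mitotic activator, had 22.2, 28 and 39.2 CPM in JAK2V617F libraries, against 16.7 and 16.9 CPM in batch 1 controls and 11.1 and 13.4 CPM in batch 2 controls. Although no JAK2V617F library was as low as any control, the log2 change was 0.84 ± 0.36 (adjusted p 0.203). It passed in the Ezh2 -/- comparison (1.57 ± 0.37, adjusted p 0.00808) and had 0.79 ± 0.27 in the Ezh2 +/- comparison (adjusted p 0.0576). Ube2c, the ubiquitin-conjugating enzyme of the complex, had 1.76 ± 0.60 against controls (adjusted p 0.0925) and passed in the other comparisons.

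Cytokinesis genes had the lowest median change of the 8 roles against controls (1.18) and 3 of 7 calls. Kif20a, a motor of the central spindle, had 75.1, 99.1 and 144 CPM in JAK2V617F libraries, against 54.5 and 53.0 CPM in batch 1 controls and 33.3 and 40.5 CPM in batch 2 controls. The groups were apart (log2 change 1.29 ± 0.22, adjusted p 0.000446). Prc1, which bundles the central spindle, rose by 1.72 ± 0.39. Anln, a scaffold of the contractile ring, had 1.55 ± 0.63 (adjusted p 0.169) and Ect2, which switches on RhoA at the division plane, 1.18 ± 0.38 (adjusted p 0.0702).

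Kif23 and Racgap1 form centralspindlin, the complex that recruits Ect2, the first with the smallest estimate of the 51 against controls. Kif23 had 40.7, 50.4 and 71.6 CPM in JAK2V617F libraries, against 42.1 and 57.7 CPM in batch 1 controls and 37.2 and 48.8 CPM in batch 2 controls. These ranges overlapped in 4 of 6 JAK2V617F libraries, and the log2 change was 0.26 ± 0.26 (95% interval -0.25 to 0.76, edgeR adjusted p 0.67). The promoter of Kif23 holds both elements, and a link between elements and changes was not tested. Racgap1 had 44.2, 63.3 and 87.7 CPM in JAK2V617F libraries, against 28.7 and 35.7 CPM in batch 1 controls and 39.0 and 25.7 CPM in batch 2 controls. All 6 were above the controls, with a log2 change of 0.87 ± 0.28 (adjusted p 0.065).

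In the other comparisons Racgap1 passed and Kif23 did not. Racgap1 changed by 1.67 ± 0.28 in JAK2V617F Ezh2 -/- against Ezh2 -/- libraries (adjusted p 0.000267) and by 1.05 ± 0.21 in JAK2V617F Ezh2 +/- against Ezh2 +/- libraries (adjusted p 0.000989). Kif23 had 0.48 ± 0.26 in the Ezh2 -/- comparison (adjusted p 0.322) and 0.56 ± 0.19 in the Ezh2 +/- comparison (adjusted p 0.0619). No difference between the 2 genes was tested.

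**Figure D4:**
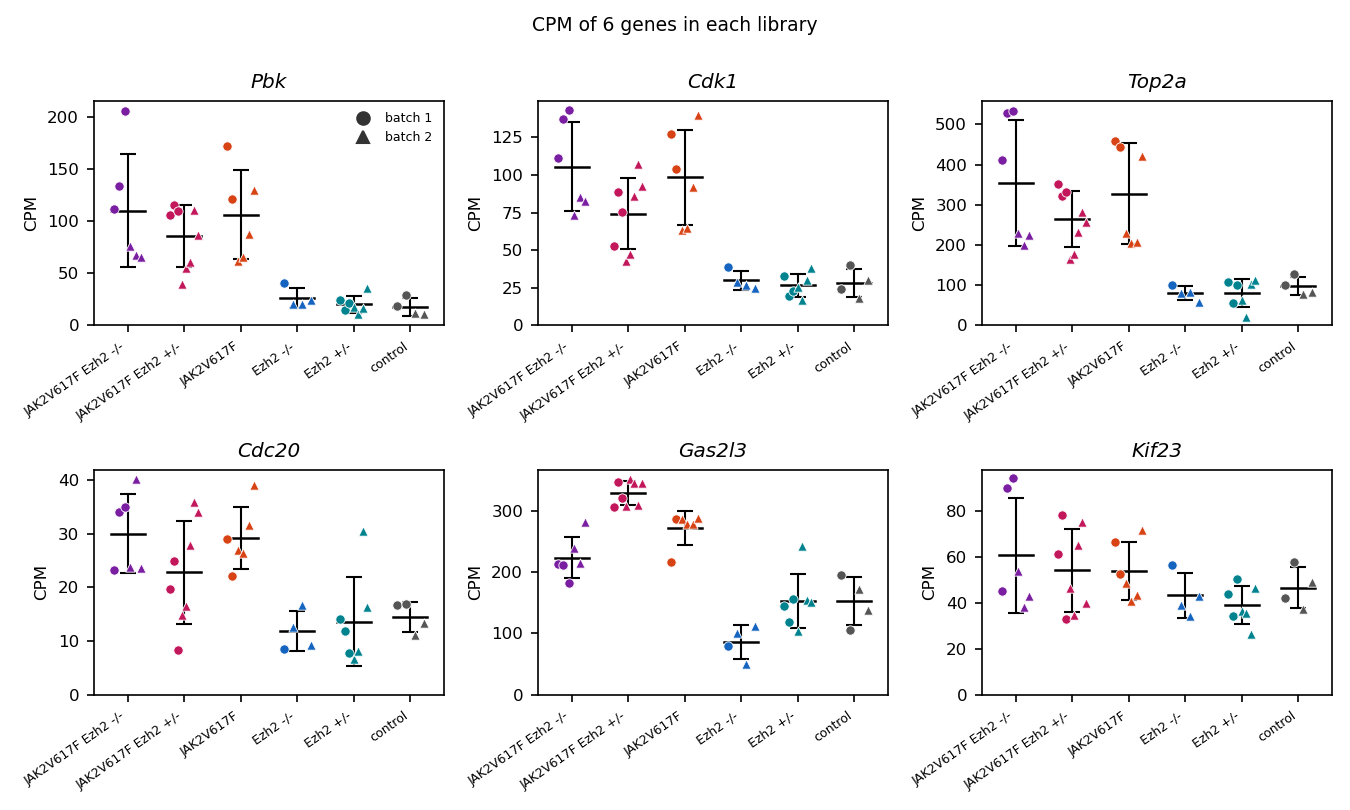
CPM of Pbk, Cdk1, Top2a, Cdc20, Gas2l3 and Kif23 in every library by genotype, with the group mean and SD. Cdk1 and Top2a separate the JAK2V617F genotypes from the rest. Pbk overlaps narrowly, with 39.6 CPM in the lowest JAK2V617F Ezh2 +/- library and 40.4 CPM in the highest Ezh2 -/- library. Kif23 overlaps throughout (26.3 to 94.4 CPM over all 6 genotypes), and Gas2l3 is highest in JAK2V617F Ezh2 +/- libraries (306 to 352 CPM).

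Members that changed little included several of the most abundant in controls. Per length, Smc4 was first of the 51 in controls at 40.0 RPKM (55.8 RPKM in JAK2V617F libraries), followed by Cenpa at 29.4, Cdca8 at 23.1, Gas2l3 at 22.6 and Top2a at 18.7 RPKM. Smc4, Cenpa and Gas2l3 had log2 changes of 0.61 to 0.85, while Cdca8 and Top2a, with 72.7 and 62.8 RPKM in JAK2V617F libraries, had 1.72 and 1.97. Nor did the promoter element sort the members: the 33 with TTTGAA had a median log2 change of 1.72 with 22 called, and the 10 without had 1.94 with 7 called. This is a description of 43 genes with no test.

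Without JAK2V617F, no member passed the edgeR threshold between Ezh2 genotypes. Between Ezh2 -/- and control libraries, edgeR called 0 members, against 1 gene of all tested (0.00669%), with 1 member at an unadjusted p under 0.05, while DESeq2 called 1 (Gas2l3) and limma-voom 0. Log2 changes ran from -1.23 to 0.86 (median -0.17, all genes -0.01), 18 of 51 were positive, and the 95% interval lay within 1 log2 unit of 0 for 19 members. The group's level was 4.04 ± 0.25 in Ezh2 -/- (n = 4) and 4.24 ± 0.45 in control libraries (n = 4), a difference of -0.20 that is smaller than the pooled SD of 0.36. Between Ezh2 +/- and control libraries, edgeR called 0 members (0.0% of all genes), with 4 at an unadjusted p under 0.05 and 0 by DESeq2 or limma-voom. The members with the smallest p were Ccnb1 (-0.98 ± 0.38, adjusted p 0.901), Spc24 (-0.69), Cenpa (-0.44), Kif2c (-1.13) and Kif11 (-0.84). Both of these comparisons, and that of JAK2V617F with control, use the same 4 control libraries.

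With JAK2V617F on both sides, no member passed either. JAK2V617F Ezh2 -/- against JAK2V617F libraries gave 0 calls among the 51 with edgeR, while 71 of all genes (0.475%) were called, with 1 member at an unadjusted p under 0.05 and 0 by DESeq2 or limma-voom. Estimates were close to 0, from -0.28 to 0.52 (median -0.03), and for 39 of 51 the 95% interval lay within 1 log2 unit of 0. The member with the smallest p was Racgap1, with 77.9, 85.3 and 93.4 CPM in JAK2V617F Ezh2 -/- libraries and 44.2, 63.3 and 87.7 CPM in JAK2V617F libraries (0.52 ± 0.24, adjusted p 0.631). Those ranges overlapped. Gas2l3 (-0.28 ± 0.16), Ndc80 (0.20), Sgo1 (0.34) and Bub1b (0.16) followed. JAK2V617F Ezh2 +/- against JAK2V617F libraries likewise gave 0 calls with edgeR (0.0% of all genes), 1 member at an unadjusted p under 0.05 and 0 calls by DESeq2 or limma-voom. Its estimates ran from -0.58 to 0.29 (median -0.31), with 5 of 51 positive. The smallest p values were those of Kif22 (-0.51 ± 0.25), Gas2l3 (0.29 ± 0.14), Cenpa (-0.33), Bub1b (-0.45) and Cdk1 (-0.39), each with an adjusted p of 1.0.

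**Figure D5:**
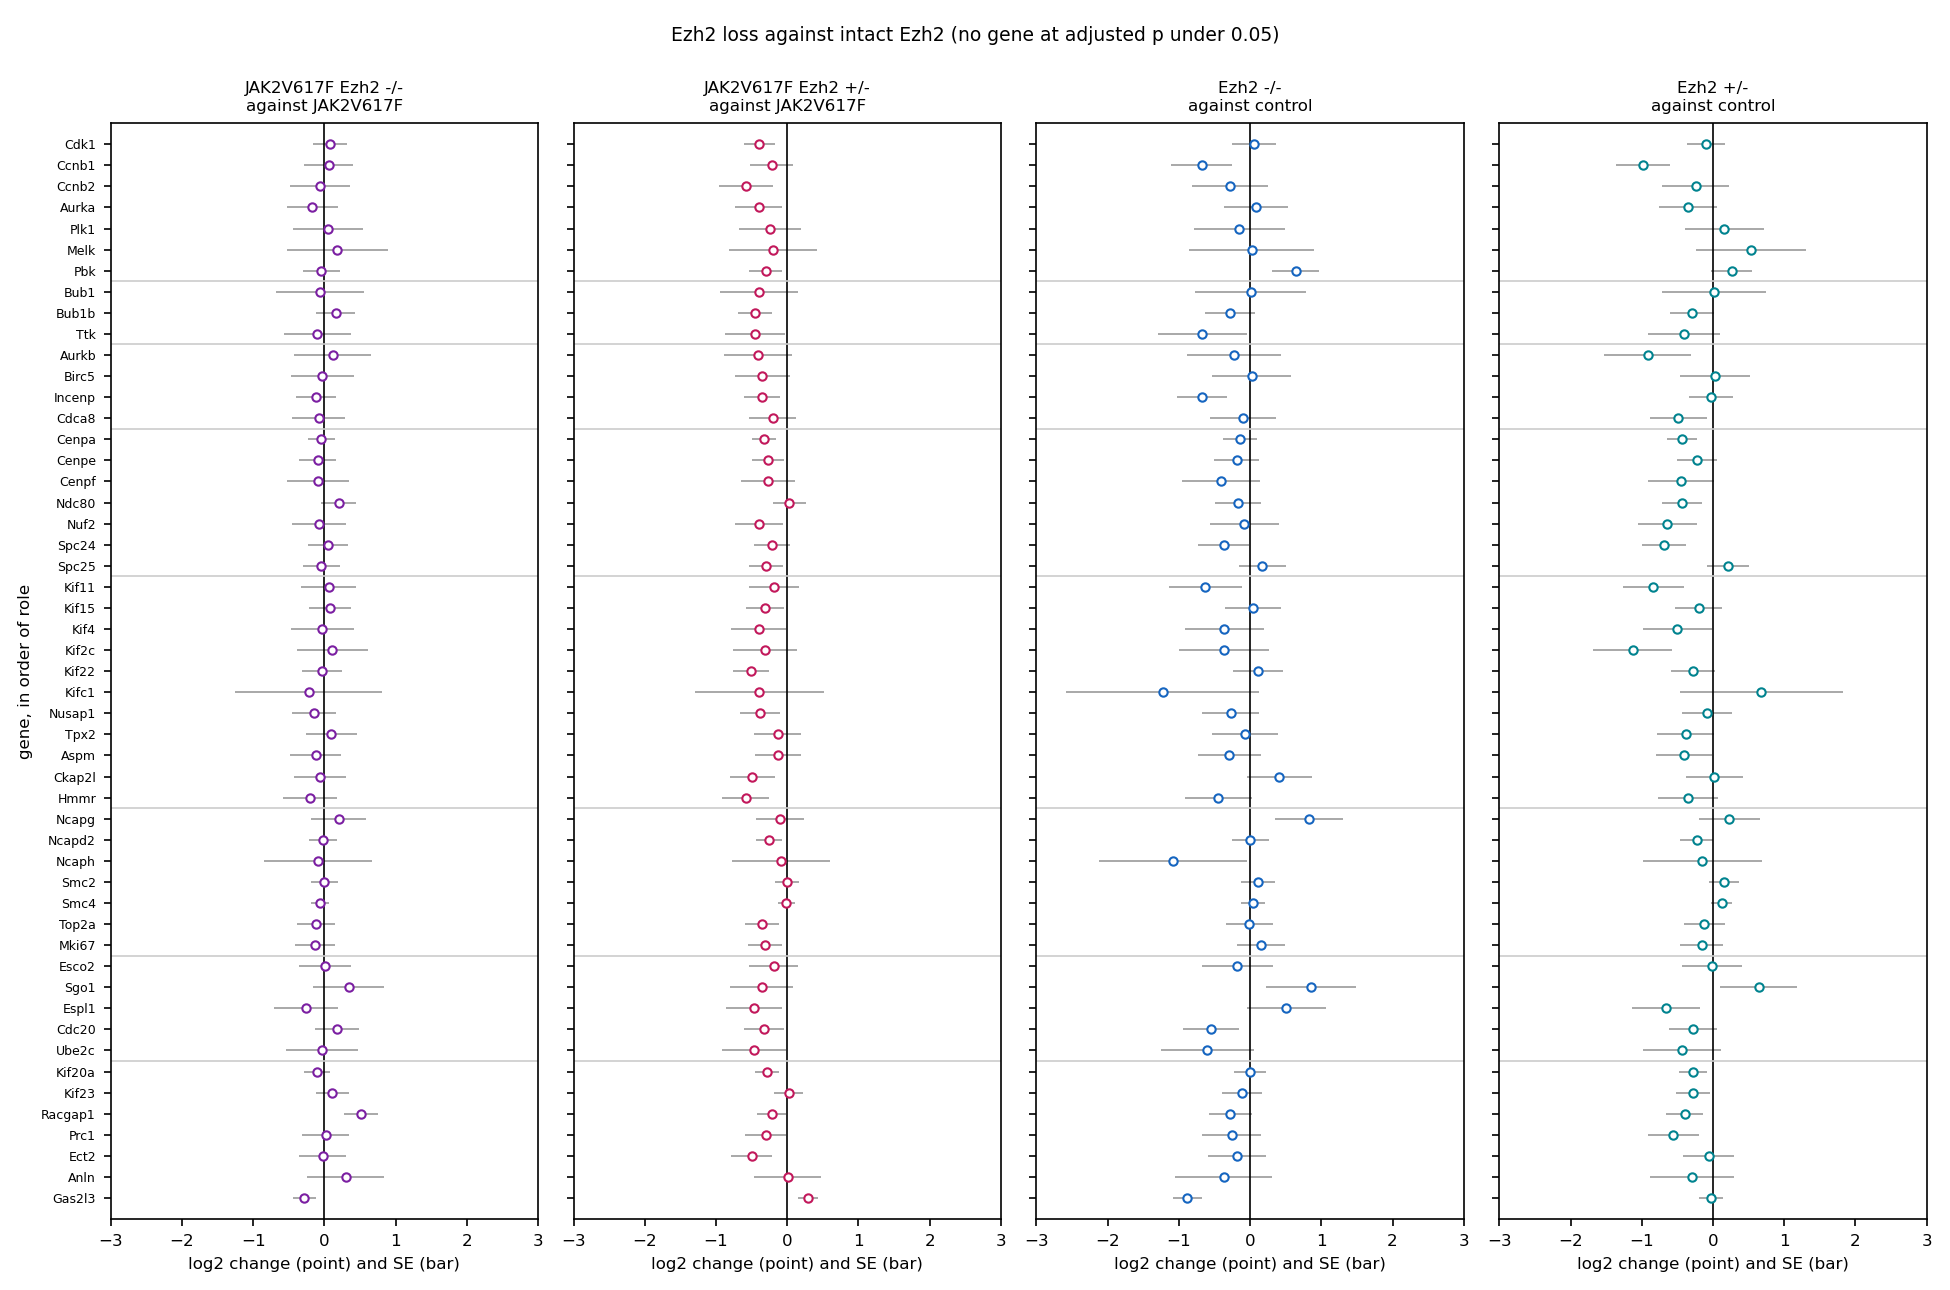
Log2 change with its SE of the 51 genes in the 4 comparisons of Ezh2 genotypes, without and with JAK2V617F. No point has an adjusted p under 0.05, and Gas2l3 in Ezh2 -/- against control libraries (-0.88 ± 0.20) has the smallest p.

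Whether the JAK2V617F difference itself changed with Ezh2 genotype was tested as an interaction. The JAK2V617F effect in Ezh2 -/- minus that in control cells gave 0 calls among the 51 with edgeR (0.00669% of all genes), 1 member at an unadjusted p under 0.05 and 0 by DESeq2 or limma-voom, with a median of 0.16 and a range of -0.77 to 1.01. The 5 with the smallest p were Gas2l3 (0.60 ± 0.27, adjusted p 0.873), Racgap1 (0.80 ± 0.40), Pbk (-0.68), Cdc20 (0.72) and Ccnb1 (0.75). For Ezh2 +/- the interaction gave 0 calls (0.0% of all genes), 0 members at an unadjusted p under 0.05 and 0 by the other tools. Its 5 were Ccnb1 (0.76 ± 0.50), Pbk (-0.56), Sgo1 (-1.0), Gas2l3 (0.32) and Spc25 (-0.51), each with an adjusted p of 1.0. Precision was low here, with the 95% interval within 1 log2 unit of 0 for 8 members in the first interaction and 15 in the second, so a moderate difference was not detectable at this number of libraries.

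Gas2l3, a linker of actin and microtubules at the midbody, had a pattern unlike the group's level. It was the only member that edgeR, DESeq2 or limma-voom called in a comparison of Ezh2 genotypes, by DESeq2 alone. Ezh2 -/- libraries had 80.0 CPM in batch 1 and 101, 50.5 and 112 CPM in batch 2, against 195 and 105 CPM in batch 1 controls and 173 and 138 CPM in batch 2 controls. Of the 4 Ezh2 -/- libraries, 3 were below every control. Sex went largely with genotype here, as 3 of the 4 Ezh2 -/- libraries were male and all 4 controls female. The 1 female Ezh2 -/- library, in batch 2, had 101 CPM. The log2 change of -0.88 ± 0.20 had an unadjusted p of 8.6e-05 and an adjusted p of 0.272 with edgeR, and an adjusted p of 0.004 with DESeq2.

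With JAK2V617F, Gas2l3 was higher at every Ezh2 genotype. JAK2V617F libraries had 217 and 286 CPM in batch 1 and 286, 279, 279 and 288 CPM in batch 2, all above the controls (log2 change 0.85 ± 0.18, adjusted p 0.00482). JAK2V617F Ezh2 -/- libraries had 182, 214 and 282 CPM (lowest, median, highest), above all Ezh2 -/- libraries (1.45 ± 0.18, adjusted p 4.24e-06), and JAK2V617F Ezh2 +/- libraries had 306, 334 and 352 CPM, against 104, 152 and 242 CPM in Ezh2 +/- libraries (1.17 ± 0.14, adjusted p 6.63e-07). All 8 JAK2V617F Ezh2 +/- libraries also exceeded all 6 JAK2V617F libraries, a difference of 0.29 ± 0.14 that did not pass (adjusted p 1.0).

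In single libraries, flagged below for their Gas2l3 values, Gas2l3 went against the group level. How the level and Gas2l3 relate within genotypes was not tested. The JAK2V617F library with the lowest Gas2l3, batch 1 replicate 1 at 217 CPM, had a group level of 6.28, the highest of that genotype. Batch 2 replicate 4 had the same level with the highest Gas2l3 of that genotype, 288 CPM. The Ezh2 +/- library with the highest Gas2l3, batch 2 replicate 2 at 242 CPM, had the lowest group level of all 35 libraries, 2.88.

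Other genes of mitosis, listed by role and not among the 51, had smaller median changes. Of 139 tested, 36 rose and none fell in JAK2V617F against control libraries (median log2 change 0.62), 35 rose and 3 fell in the Ezh2 -/- comparison (median 0.49), and 53 rose and 3 fell in the Ezh2 +/- comparison (median 0.52). Kinetochore genes gave 9 of 23 against controls, among them Cenpk (1.31 ± 0.27) and Cenph (1.78 ± 0.39), and cytokinesis genes 6 of 11, led by Cdca3, Shcbp1 and Arhgap11a (2.0, 2.24 and 1.90). Spindle assembly genes gave 7 of 25, with Tacc3 at 1.37 ± 0.27. Spindle checkpoint genes gave 3 of 11: Mad2l1 (1.19 ± 0.24), Kntc1 (1.70) and Trip13 (1.40).

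The regulators around mitosis were uneven. The anaphase-promoting complex, the ubiquitin ligase that ends mitosis, gave 1 of 17, and that gene was its inhibitor Fbxo5 (1.87 ± 0.34, adjusted p 0.00103). Entry cyclins and phosphatases gave 4 of 16, including Ccna2 (1.26 ± 0.31), Cks2 (1.27 ± 0.32) and Cdc25c (2.85 ± 0.72). Transcription factors that control mitotic and S-phase genes gave 5 of 19: E2f8 (2.89 ± 0.60, adjusted p 0.00351), E2f1 (1.80 ± 0.46), Rbl1 (0.87 ± 0.23), E2f7 (2.12 ± 0.60) and Tfdp1 (0.80 ± 0.23). DNA replication genes rose in 21 of 40 (median 0.94), with Tyms at 1.40 ± 0.22, Mcm6 at 0.96 ± 0.17 and Tipin at 1.02 ± 0.19.

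Of the 139 genes, 3 fell in the Ezh2 -/- comparison, where 295 of all 14945 genes were lower, and 3 in the Ezh2 +/- comparison, where 624 of all were lower, so nothing is read from their number. Pttg1, which holds separase inactive until anaphase and is named here after its values were seen, had 62.7 ± 3.84 CPM in JAK2V617F Ezh2 +/- (SD, n = 8) and 105 ± 21.3 CPM in Ezh2 +/- libraries (n = 7), and its log2 change of -0.68 ± 0.11 passed (edgeR adjusted p 0.000111). It also fell in the Ezh2 -/- comparison, with 58.9 ± 7.36 CPM in JAK2V617F Ezh2 -/- (n = 6) and 95.5 ± 18.5 CPM in Ezh2 -/- libraries (n = 4; -0.66 ± 0.14, adjusted p 0.00439). Against controls it had -0.47 ± 0.15 (adjusted p 0.0639). Rbl2, a pocket protein of the repressor complex of resting cells and likewise named after its values were seen, fell in the Ezh2 +/- comparison (-0.72 ± 0.15, adjusted p 0.00168) and in the Ezh2 -/- comparison (-0.65 ± 0.20, adjusted p 0.0478), with -0.41 against controls (adjusted p 0.291).

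Markers of the sorted cells moved with JAK2V617F too, while a smaller share of the markers of other blood cells was called. The 10 LT-HSC markers summed to 3080.3 to 4715.7 CPM in JAK2V617F libraries and 4772.9 to 5908.4 CPM in controls, with 4 of 10 lower, among them Procr and Hlf, and none higher. Of all 14945 genes, 273 were lower against controls. In the Ezh2 -/- comparison 5 of the 10 were lower, and 295 of all genes. In the Ezh2 +/- comparison 7 of the 10 were lower, and 624 of all genes. Of 6 multipotent progenitor markers, Cd34 rose against controls (0.83). The 15 neutrophil and monocyte markers summed to 2067.2 to 17827.7 CPM in JAK2V617F libraries and 2826.8 to 8097.1 CPM in controls, with none called. The 12 erythroid markers summed to 3761.6 to 6375.4 CPM in JAK2V617F libraries and 4111.5 to 6251.1 CPM in controls, with none called. For the 10 megakaryocyte markers the sums were 408.9 to 1222.1 CPM in JAK2V617F libraries and 426.3 to 676.2 CPM in controls, also with none called. Of the B cell and of the T and NK cell markers, 1 each was lower. In the Ezh2 +/- comparison 5 of 12 erythroid markers, 1 of 10 megakaryocyte markers (Clec1b) and 1 of 6 T and NK cell markers (Klrb1c) were lower and Cd34 was higher, and in the Ezh2 -/- comparison 1 erythroid marker (Rhag) was higher. Lymphoid markers differed in detection: Pax5 was at 0 in 34 of 35 libraries and Cd3e in 32. Cd79b, Nkg7, Klrb1c and Lck had counts in every library, with means of 65.56, 67.22, 29.95 and 26.11 CPM over all libraries. The part of these shifts in the mitotic differences was not tested.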

How the data were processed

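RNA-seq was measured in 35 libraries of LT-HSCs. The authors deposited a raw count for each Entrez gene, made with STAR and mouse build mm9, per the submitters' processing notes; the counting tool, annotation and strand setting were not given in the sources used here. Counts of 19138 genes were fitted with edgeR 4.0.16 in R 4.3.3 (TMM scaling, filterByExpr, robust quasi-likelihood test, 14945 genes, terms for genotype, batch and sex, all 35 libraries, 27 residual degrees of freedom). SEs and 95% intervals were derived from the F statistic, and p-values were adjusted over all 14945 genes. CPM used total counts. Checks used DESeq2 1.42.0 and limma 3.58.1. The test was checked on simulated counts. Promoter sequences came from RefSeq, in another build than the counts.

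The 51 members, gene lists and tests were chosen with earlier results of these data known. Any member may be named by its role. Against controls the text names up to 3 calls per role with the smallest adjusted p, every member not called and the most abundant per length, and elsewhere every call or the 5 smallest p-values; a few genes outside the 51 that the rule would name are not reported here. Alternatives were another scaling or test, no filter, no sex term, compared groups alone, each batch, females, a replicate block, and leaving out each library or both doubted ones.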

Additional observations from a re-analysis of the deposited data

Results flagged for a closer look

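Of 312 sets of values (51 members and the group level in 6 genotypes), 15 held a library whose gap to its nearest neighbour was large for the range of its set by Dixon's criterion, and chance gives about 1 in 20. Among controls these were Ccnb2 in batch 2 replicate 4 (36.1 CPM, the others 19.5 to 21.6), Cenpf and Nuf2 in batch 1 replicate 2 (35.6 CPM, the others 21.3 to 23.7, and 29.2 CPM, the others 3.95 to 7.69), and Smc4 in batch 2 replicate 4 (153.0 CPM, the others 167). Among Ezh2 +/- libraries, Aurkb and Kif15 stood high in batch 1 replicate 1 (35.9 CPM, the others up to 14.8, and 21.7 CPM, the others up to 13.9), Spc24 in batch 2 replicate 4 (27.8 CPM, the others up to 15.1), Cdc20 in batch 2 replicate 3 (30.5 CPM, the others up to 16.4) and Gas2l3 in batch 2 replicate 2 (242.0 CPM, the others 104 to 156). Gas2l3 in JAK2V617F batch 1 replicate 1 was low (217.0 CPM, the others 279 to 288).

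Among JAK2V617F Ezh2 -/- libraries, Cenpe in batch 1 replicate 2 (130.0 CPM), Ect2 in batch 1 replicate 3 (80.7 CPM) and Kifc1 in batch 1 replicate 1 (9.45 CPM) stood above the rest. Among JAK2V617F Ezh2 +/- libraries, Kifc1 in batch 1 replicate 1 (7.35 CPM) and Smc4 in batch 1 replicate 2 (303.0 CPM) did.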

How the results depend on the processing

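Of 51 members, 35 were called against controls. DESeq2 gave 41, limma-voom 43, DESeq2's size factors 35, no filter 32, no sex term 40, compared groups alone 25, females alone 35, leaving out both doubted libraries 38, and a quasi-likelihood fit without robust estimation, added after seeing the data, 36. With fewer samples by construction, batch 1 alone gave 13, batch 2 alone 3 and leaving out each library 21 to 36. For JAK2V617F Ezh2 -/- against Ezh2 -/- libraries (42), batch 1 alone gave 0 and females 10, each resting on a single Ezh2 -/- library, batch 2 alone gave 20 and leaving out each library 30 to 42; for the Ezh2 +/- comparison (43), batch 1 alone gave 23 and leaving out each library 43 to 46. Counts for the comparisons of Ezh2 genotypes and the interactions stayed at 0 to 0 on leaving out a library, and DESeq2 gave 1 (Gas2l3) for Ezh2 -/- against control; the cause was not tested. Replicate numbers repeat between genotypes, but residuals of same-numbered libraries correlated at -0.132 to 0.077, so they do not pair the libraries; a replicate block gave 38, 30 and 43 calls for the 3 JAK2V617F comparisons. Single genes were followed for all 51 members in the JAK2V617F comparisons. In each comparison of Ezh2 genotypes and each interaction only the 5 members with the smallest p were followed. Among these, the sign turned for Ccnb1 in Ezh2 -/- against control (0.04 with the replicate block). It also turned for Bub1b in JAK2V617F Ezh2 -/- against JAK2V617F (-0.06 without a sex term, -0.04 in females, -0.01 in the compared groups) and there for Sgo1 in batch 2 (-0.09). The cause was not tested, and the signs of the remaining members were not examined. No call was made where a sign turned. The number of libraries limits the interactions and the single batches, and counts of a few reads limit Kifc1.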
